A study of Mus musculus with 11 samples.

Results

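The count table holds 5 symbols that encode parts of the gamma-delta T cell receptor, Trdc, Trgc1, Trgc2, Trgc4 and Trgv2, and these were followed through all 11 libraries and set against Trac, the constant region of the alpha chain. They were taken by symbol and are 5 of the 36 gamma, delta and dual-use segments among 35814 symbols. RNA had been sequenced from CD4+ T cells of the kidney, sorted on day 2 after ischemia-reperfusion injury (IRI) with 45 min of clamping, in male C57BL/6 mice aged 8 to 12 weeks. The 3 CD4cre controls carry Cre recombinase under the CD4 promoter and are labelled WT. The 5 CD4IKK1 and 3 CD4NIK mice carry the same Cre with floxed IKK1 (Chuk) or floxed NIK (Map3k14), so every group shares the transgene and the injury, and no sham-operated library was analysed here. Cre under this promoter acts in all cells that pass a CD4-expressing stage in the thymus and not in CD4+ T cells alone. The comparisons ask how deletion of either kinase in these cells changes the RNA of the cells recovered from the injured kidney.

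A T cell carries either an alpha-beta or a gamma-delta receptor. The delta locus lies inside the alpha locus, and an alpha rearrangement cuts Trdc out of that chromosome, whereas the gamma locus stays in place in alpha-beta T cells and can be rearranged and transcribed there. Most gamma-delta T cells do not express CD4, and in inflamed tissue they are known as an early source of IL-17 and interferon-gamma.

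Trdc encodes the single delta constant region and lies on chromosome 14 of GRCm39 from 54380308 to 54386325 on the plus strand. Trac follows it on the same strand from 54457978 to 54461663. The gamma locus on chromosome 13 holds 4 constant genes, each with its own joining segment and a private set of variable segments. Trgc1 (19398273 to 19401194, plus strand) is used by Trgv4, Trgv5, Trgv6 and Trgv7. Trgc2 (19488819 to 19491721, minus strand) is used by Trgv2 (19520743 to 19521337, minus strand), the only variable segment among the 5 genes. Trgc4 (19528728 to 19536926, plus strand) is used by Trgv1. Coordinates are those of GENCODE release 39, which holds 93.6% of the symbols.

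The first 120 bases of exon 1 of the 4 gamma constant genes show which counts can be told apart. Capitals mark the 17 positions at which the genes are not all identical, and sequences were read from GRCm39 in the direction of transcription.
Trgc1 (chr13:19398273-19398392, plus strand): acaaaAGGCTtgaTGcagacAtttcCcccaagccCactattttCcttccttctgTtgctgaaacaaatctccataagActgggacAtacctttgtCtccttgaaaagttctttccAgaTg
Trgc2 (chr13:19491602-19491721, minus strand): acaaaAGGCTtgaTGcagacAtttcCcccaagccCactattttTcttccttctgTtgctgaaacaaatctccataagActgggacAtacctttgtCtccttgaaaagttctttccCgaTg
Trgc3 (chr13:19445055-19445174, plus strand): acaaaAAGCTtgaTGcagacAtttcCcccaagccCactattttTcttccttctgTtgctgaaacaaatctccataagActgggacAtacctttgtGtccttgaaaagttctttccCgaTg
Trgc4 (chr13:19528728-19528847, plus strand): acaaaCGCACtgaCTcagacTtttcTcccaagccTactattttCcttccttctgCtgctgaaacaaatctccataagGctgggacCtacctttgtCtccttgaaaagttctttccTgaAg

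Trgc4 differed from the other 3 at 14 of these positions, Trgc1 at 1 and Trgc2 at 0. Over the 330 bases of exon 1, Trgc1 and Trgc2 were 97.3% identical, whereas Trgc4 was 81.2% to 82.1% identical to the others. Of the 31-base words of the transcripts, 48.4% in Trgc1 and 45.9% in Trgc2 also occurred in another gene, and 0% in Trgc4 and in Trac. The division of reads between Trgc1, Trgc2 and Trgc3 is therefore uncertain, while Trgc4 shares no such word with another transcript. Trgv2 shared 20.2% of its words, with Trgv1 and Trgv3. Trdc shared 6.51%, most of them (4.70%) with Trdv5 and the rest with other genes, 5981 in all, so its few and fractional counts need not all come from Trdc. The last 207 bases of the Trdc gene overlap Trdv5 on the opposite strand, and whether counting used strand is not given in the sources used here.

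The libraries held 15751632 to 25737046 estimated counts, at which 3 counts, taken as the limit that a count of 0 allows, equal 0.117 to 0.190 CPM, which are counts scaled to library size. Trac, which every alpha-beta T cell expresses, was counted 10190, 5815 and 3515 times in CD4cre and 23227, 40733 and 35009.9 times in CD4NIK. It had 1, 228, 2408, 1347 and 2388 counts in CD4IKK1 replicates 1 to 5, so replicates 1 and 2 held the fewest, and the comparisons with CD4IKK1 are also given without them. Without them, the CD4IKK1 means were 0.0150 ± 0.0260 CPM for Trdc and for Trgv2, 1.30 ± 0.358 CPM for Trgc1, 1.48 ± 0.853 CPM for Trgc2 and 0.307 ± 0.398 CPM for Trgc4 (SD, n = 3). The targeted genes did not mark the libraries named for their deletion, with edgeR quasi-likelihood FDRs of 0.921 for Chuk and 0.575 for Map3k14. Chuk was at 22 ± 9.69 CPM (SD, n = 3) in CD4cre and 20.4 ± 4.52 CPM (SD, n = 5) in CD4IKK1-labelled libraries, and Map3k14 at 17.9 ± 2.77 CPM and 22.5 ± 9.06 CPM (SD, n = 3 each) in CD4cre and CD4NIK-labelled libraries. These values cover whole genes and do not resolve the floxed exons, and CD4IKK1 and CD4NIK below name the libraries so labelled. The summed level of 7 CD4 T cell markers, Cd4 among them, was 355.6 to 628 CPM in CD4cre, 8.72 to 281 CPM in CD4IKK1 and 1889 to 2660.5 CPM in CD4NIK libraries. That of 7 neuronal markers was 1386 to 1731, 1692 to 2053 and 426 to 904 CPM in the same order. Both lists thus moved with the groups. Their part in the results that follow was not tested. In sorted bulk RNA, fewer cells of a type and less RNA of a gene per cell cannot be told apart.

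All 5 genes were lowest in CD4IKK1, intermediate in CD4cre and highest in CD4NIK libraries by mean CPM. Each CD4IKK1 library lay below each CD4cre and each CD4NIK library for all 5 genes. The CD4cre and CD4NIK libraries did not overlap for Trdc and Trgc2, and overlapped for Trgc1, Trgc4 and Trgv2. Relative to Trac, CD4IKK1 and CD4cre overlapped for Trgc1, Trgc2 and Trgv2, and CD4NIK and CD4cre for all 5 genes. For Trdc relative to Trac, the limits that counts of 0 allow in CD4IKK1 reach above CD4cre values, so no order of these groups was measured.

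**Figure D1:**
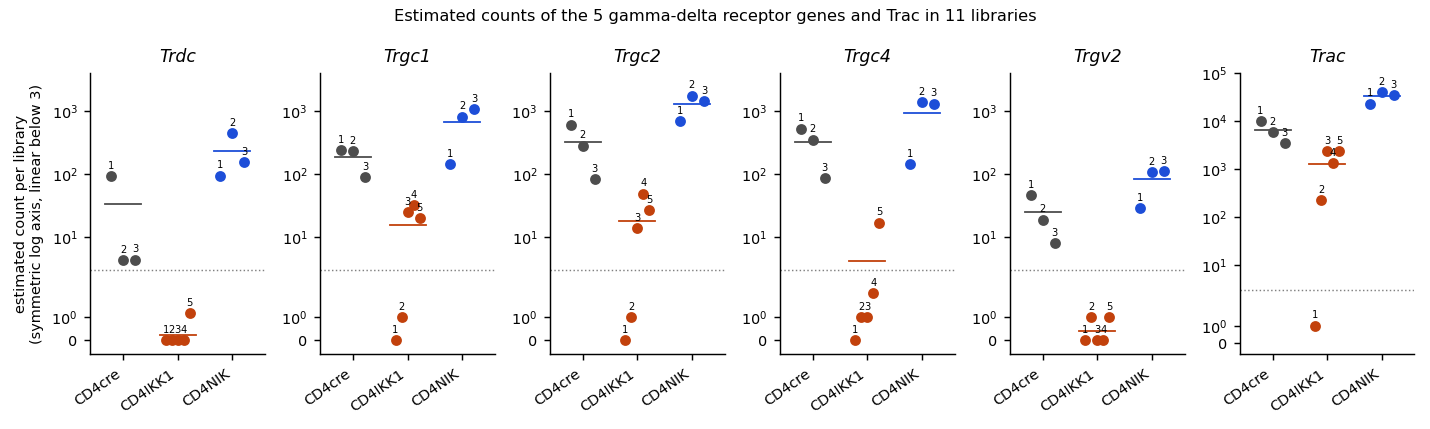
Estimated counts of Trdc, Trgc1, Trgc2, Trgc4, Trgv2 and Trac (vertical axis, logarithmic above 3 counts and linear below) in the 3 CD4cre, 5 CD4IKK1 and 3 CD4NIK libraries. Points carry the replicate number, bars are group means and the dotted line marks 3 counts. Every CD4IKK1 point of the first 5 panels lies below the CD4cre points, and CD4IKK1 replicate 1 has 0 counts of each and 1 count of Trac.

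Trdc is the gene most specific to gamma-delta T cells in this set. It had 92.7, 4.27 and 4.42 counts in CD4cre replicates 1, 2 and 3. In CD4IKK1 libraries it had 0 counts in replicates 1 to 4 and 1.14 counts in replicate 5. In CD4NIK libraries it had 94.6, 446 and 155 counts. CD4cre replicate 1 thus held most of the counts of its group, the others were just over the limit of 3 counts, and no CD4IKK1 library passed that limit. The levels were 1.32 ± 1.95 CPM (SD, n = 3) in CD4cre, 0.00901 ± 0.0201 CPM (SD, n = 5) in CD4IKK1 and 12.7 ± 8.48 CPM (SD, n = 3) in CD4NIK. Pooled over libraries, CD4cre held 101 counts against 1 in CD4IKK1 after rounding, a 146-fold ratio of CPM with an exact 95% interval of 25.6 to 5813. Without CD4cre replicate 1, the ratio was 19.2 (2.58 to 854), from 8 counts against 1. The ratio of CD4NIK to CD4IKK1 was 1160-fold (207 to 45872), and 674-fold (119.8 to 26718) without CD4NIK replicate 2. Without CD4IKK1 replicates 1 and 2, the ratios over CD4IKK1 were 91.0-fold (16.0 to 3628) for CD4cre and 724-fold (129 to 28628) for CD4NIK. These and the later intervals and limits are for counting error alone, because PCR copies were counted without molecular identifiers, and they take no account of the spread between mice.

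Trgc1 had 240.3, 231 and 89.5 counts in CD4cre, 0, 1, 25, 32 and 20 counts in CD4IKK1 and 143, 818 and 1084 counts in CD4NIK libraries. Its level was 8.32 ± 3.45 CPM (SD, n = 3), 0.791 ± 0.743 CPM (SD, n = 5) and 41.5 ± 34.3 CPM (SD, n = 3) in that order. In CD4IKK1 replicates 3 to 5 the counts were well above the limit, so the low group level does not rest on the 2 libraries with little Trac alone. CD4NIK replicate 1, at 7.89 CPM, fell within the CD4cre range.

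Trgc2, the partner of Trgv2, had 613, 285 and 83.5 counts in CD4cre, 0, 1, 14, 49 and 27 counts in CD4IKK1 and 687, 1759 and 1446 counts in CD4NIK libraries. This gave 13.9 ± 9.70 CPM (SD, n = 3), 0.899 ± 1.00 CPM (SD, n = 5) and 75.5 ± 33.5 CPM (SD, n = 3). It was the gamma constant gene with the highest mean level in CD4NIK, and its 3 groups did not overlap.

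Trgc4, whose counts cannot be mistaken for those of a near copy, had 528, 355 and 86 counts in CD4cre libraries. In CD4IKK1 libraries it had 0, 1, 1, 2 and 17 counts. In CD4NIK libraries it had 143, 1393 and 1314 counts. Only replicate 5 of the CD4IKK1 libraries passed 3 counts, although replicates 3 and 4 held 25 and 32 counts of Trgc1. The level was 14.0 ± 8.49 CPM (SD, n = 3) in CD4cre, 0.195 ± 0.321 CPM (SD, n = 5) in CD4IKK1 and 56.4 ± 43.7 CPM (SD, n = 3) in CD4NIK.

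Trgv2 had the lowest mean CPM of the 5 genes in CD4cre and CD4NIK, with 1.04 ± 0.71 CPM and 4.92 ± 3.17 CPM (SD, n = 3 each), against 0.0195 ± 0.0268 CPM (SD, n = 5) in CD4IKK1. In CD4cre this rank rests on replicate 1, because Trdc had fewer counts in replicates 2 and 3, 4.27 and 4.42. Trgv2 had 47, 19 and 8 counts in CD4cre, 0, 1, 0, 0 and 1 counts in CD4IKK1 and 29, 107 and 112 counts in CD4NIK libraries. No CD4IKK1 library passed 3 counts, and CD4NIK replicate 1 fell within the CD4cre range. From 74 counts against 2, the ratio of CD4cre to CD4IKK1 in CPM was 53.4-fold, with an exact 95% interval of 14.3 to 449 that covers counting error only. It was 32.5-fold (8.16 to 282) without CD4cre replicate 1, and 66.6-fold (11.6 to 2667) without CD4IKK1 replicates 1 and 2.

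Per kilobase of transcript, and within a library, Trgc1, Trgc2 and Trgc4 had higher levels than Trdc in the 10 libraries with a count of any. In CD4NIK replicate 2, Trgc2 had 1924 counts per kilobase, Trgc4 1414, Trgc1 885, Trgv2 218 and Trdc 115, against 43565 for Trac. In CD4cre replicate 2 the values were 312 for Trgc2, 360.4 for Trgc4 and 1.11 for Trdc. The distance between Trdc and the gamma constants thus differed between libraries.

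The groups were then compared with edgeR's quasi-likelihood test with Benjamini-Hochberg adjustment over all genes tested. A call required an adjusted p (FDR) under 0.05 together with a difference of over 2-fold. CD4IKK1 and CD4NIK were each set against the same 3 CD4cre libraries, so these comparisons are not independent of each other. Replicates are labelled as biological, 1 library per label.

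Between CD4IKK1 and CD4cre, no gene of 15653 was called by edgeR (0.0% lower), and 2592 genes had an unadjusted p under 0.05. Of the 5 genes, Trdc and Trgv2 had too few counts to pass edgeR's filter. The remaining 3 were lower without passing the threshold. The log2 fold change of Trgc1 was −3.38 (SE 1.07, edgeR quasi-likelihood FDR 0.169). That of Trgc2 was −3.93 (SE 1.12, FDR 0.148), and that of Trgc4 was −6.06 (SE 1.07, FDR 0.0632), where the smallest FDR of any gene was 0.0543. With 1 library left out, they ran from −3.79 to −3.07 for Trgc1, from −4.71 to −3.31 for Trgc2 and from −7.85 to −5.70 for Trgc4. The value of −7.85 was that without CD4IKK1 replicate 5. All 5 genes had non-overlapping groups, as did 8.44% of the genes tested in the same direction.

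Calls in this comparison depended on the test. DESeq2 called 542 genes, 502 of them lower (4.46% of the 11256 with an adjusted p), and called all 3 genes with an adjusted p: Trgc1 at 0.0213, Trgc2 at 0.0072 and Trgc4 at 8.25e-07. It gave no adjusted p for Trdc and Trgv2. Without a filter, edgeR's quasi-likelihood test called Trgc4 (FDR 0.0255) and called neither Trdc (FDR 0.155) nor Trgv2 (FDR 0.210). With all 11 libraries in the fit it called Trgc4 (FDR 0.0391) and neither Trgc1 nor Trgc2. Trdc and Trgv2 pass the filter of that fit only through their CD4NIK counts, so their calls in it are not used. Without CD4IKK1 replicates 1 and 2, the log2 fold changes were −2.68 for Trgc1 (FDR 0.132), −3.22 for Trgc2 (FDR 0.133) and −5.45 for Trgc4 (FDR 0.107), all from edgeR's quasi-likelihood test.

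The alpha-beta receptor chains were also lower in CD4IKK1 by estimate. Trac had 284 ± 108 CPM (SD, n = 3) in CD4cre and 64.5 ± 59 CPM (SD, n = 5) in CD4IKK1, with a log2 fold change of −2.14 (SE 1.34, edgeR quasi-likelihood FDR 0.498). The log2 fold changes of Trbc1 and Trbc2, the beta constants, were −1.95 and −2.15, and Cd3e, a signalling chain common to both receptors, was at −2.49. Without CD4IKK1 replicates 1 and 2, Trac was at 103.6 ± 34.8 CPM (SD, n = 3) in CD4IKK1, and the median log2 fold change of the 3 chains was −1.46. The standard errors of these 4 genes exceed 1 on the log2 scale, and whether the gamma constants differed from them was tested only as ratios, below.

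**Figure D2:**
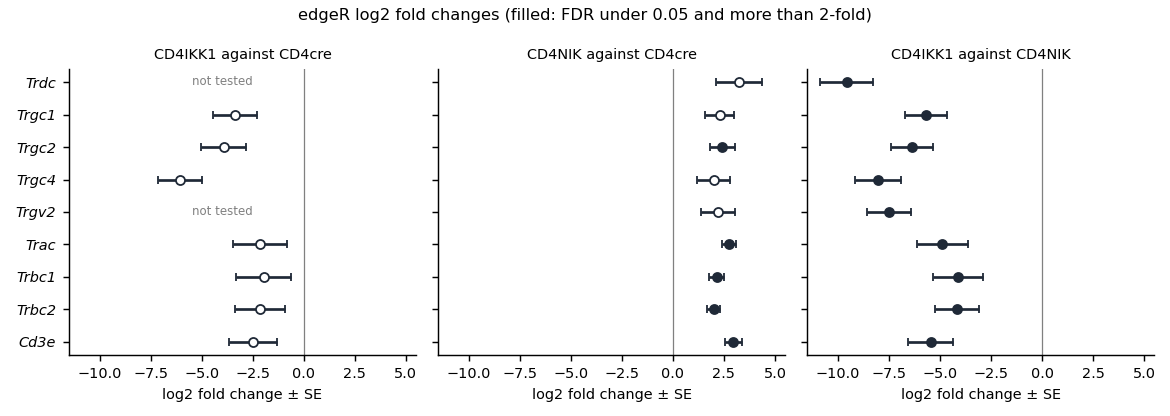
Log2 fold changes with standard errors (horizontal axis) of the 5 genes, Trac, Trbc1, Trbc2 and Cd3e in the 3 comparisons. Filled points passed an FDR under 0.05 and a 2-fold difference in edgeR's quasi-likelihood test, and genes below its filter are marked as not tested. No point is filled for CD4IKK1 against CD4cre, Trgc2 is the only filled one of the 5 genes for CD4NIK against CD4cre, and all 5 are filled for CD4IKK1 against CD4NIK. Of these 5, Trdc and Trgv2 passed the filter only through their CD4NIK counts.

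Between CD4NIK and CD4cre, edgeR called 2649 of 15209 genes, 1586 of them higher (10.4%) and 1063 lower. With upper-quartile factors, which moved the median of all genes to −0.16, the split became 1398 higher and 1717 lower. Trgc2 was the only one of the 5 genes called, with a log2 fold change of 2.43 (SE 0.60, edgeR quasi-likelihood FDR 0.0276). The estimates of the others were of like size, with log2 fold changes of 3.22 for Trdc (SE 1.13, FDR 0.0725), 2.30 for Trgc1 (SE 0.72, FDR 0.0534), 1.99 for Trgc4 (SE 0.83, FDR 0.118) and 2.21 for Trgv2 (SE 0.82, FDR 0.0868). DESeq2 called 4 of the 5 genes, all but Trgc4 (adjusted p = 0.131), where it called 13.1% of its genes as higher. Groups of 2 of the 5 genes did not overlap, against 22.9% of all genes tested in this direction.

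Single libraries decided these calls. Without CD4NIK replicate 1, the lowest of its group for all 5 genes, edgeR's quasi-likelihood test called Trgc1 (FDR 0.00566), Trgc2 (FDR 0.0162), Trgc4 (FDR 0.0187) and Trgv2 (FDR 0.0432). That fit called 1695 of 16090 genes higher. Without CD4cre replicate 1, where 1703 of 15934 genes were called higher, Trgc2 was called (edgeR quasi-likelihood FDR 0.0245), as was Trdc (FDR 0.00831). Trdc passed that filter only through CD4NIK, since the remaining CD4cre libraries held 4.27 and 4.42 counts, so its call is not used. Its log2 fold change was 5.93 there against 3.22 with all libraries, and ran from 2.62 to 5.93 with 1 library left out. Without CD4cre replicate 2 or 3, or CD4NIK replicate 2 or 3, none of the 5 was called, and the FDR of Trgc2 was 0.0799, 0.0546, 0.0908 and 0.0958 in that order. Its log2 fold change stayed at 2.46, 2.02, 2.36 and 2.17. The genes called higher in these fits numbered 884 of 15909, 780 of 16031, 852 of 15979 and 614 of 16162, against 1586 of 15209 with all libraries. Trac was at 284 ± 108 CPM in CD4cre and 1918 ± 599 CPM in CD4NIK (SD, n = 3 each), and was called with a log2 fold change of 2.74 (SE 0.35, FDR 0.00416).

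Between CD4IKK1 and CD4NIK, Trgc1, Trgc2 and Trgc4 were called lower in CD4IKK1, where edgeR called 18.5% of 16546 genes lower and 14.8% higher. The log2 fold changes from edgeR's quasi-likelihood test were −9.57 for Trdc (SE 1.31, FDR 0.000196), −5.69 for Trgc1 (SE 1.04, FDR 0.00135) and −6.35 for Trgc2 (SE 1.03, FDR 0.00081). Those of Trgc4 and Trgv2 were −8.03 (SE 1.12, FDR 0.000317) and −7.51 (SE 1.08, FDR 0.000251). Trdc and Trgv2, with 1 and 2 counts in all of CD4IKK1, passed the filter only through their CD4NIK counts, so their calls in this fit are not used. Their fitted size depends on the prior count of the fit. Without a filter both were called too (edgeR quasi-likelihood FDR 5.56e-05 and 0.000155). DESeq2 also called all 5, against 19.8% of its genes, and the groups of all 5 did not overlap, against 24.4% of genes. Without CD4IKK1 replicates 1 and 2, the log2 fold changes of the 5 genes lay between −9.12 and −4.98, and all were called, beside 17.1% of 16190 genes called lower. The limit on Trdc and Trgv2 holds for that fit too. Trac fell by 4.89 on the log2 scale (SE 1.25, FDR 0.0112), and was called too.

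Since Trac itself differed between the libraries, each gene was also expressed per 1000 Trac counts. Trdc stood at 9.10, 0.735 and 1.26 per 1000 Trac counts in CD4cre, at 4.07, 11.0 and 4.44 in CD4NIK, and at 0 in CD4IKK1 replicates 1 to 4 and 0.479 in replicate 5. A count of 0 allows up to 3000, 13.2, 1.25 and 2.23 per 1000 in CD4IKK1 replicates 1, 2, 3 and 4, so the first of these carries no information. At this depth, no difference in Trdc per Trac from CD4cre replicates 2 and 3 could be detected in CD4IKK1.

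Trgc1 stood at 23.6, 39.7 and 25.5 per 1000 Trac counts in CD4cre, 0, 4.39, 10.4, 23.8 and 8.38 in CD4IKK1 and 6.16, 20.1 and 31 in CD4NIK. Trgc2 stood at 60.1, 49.0 and 23.8 in CD4cre, 0, 4.39, 5.81, 36.4 and 11.3 in CD4IKK1 and 29.6, 43.2 and 41.3 in CD4NIK. CD4IKK1 replicate 4 thus fell within or next to the range of the other groups for both, and the other CD4IKK1 libraries lay below CD4cre.

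Trgc4 stood farthest from the others. It was at 51.8, 61.1 and 24.5 per 1000 Trac counts in CD4cre, at 0, 4.39, 0.415, 1.48 and 7.12 in CD4IKK1 and at 6.16, 34.2 and 37.5 in CD4NIK. All 5 CD4IKK1 values are below the CD4cre values, but that of replicate 1 rests on 1 Trac count. CD4NIK replicate 1 fell among the CD4IKK1 values. Trgv2 stood at 4.61, 3.27 and 2.28 in CD4cre, at 1.25, 2.63 and 3.2 in CD4NIK, and in CD4IKK1 at 4.39 in replicate 2, from 1 count, at 0.419 in replicate 5 and at 0 in the others.

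**Figure D3:**
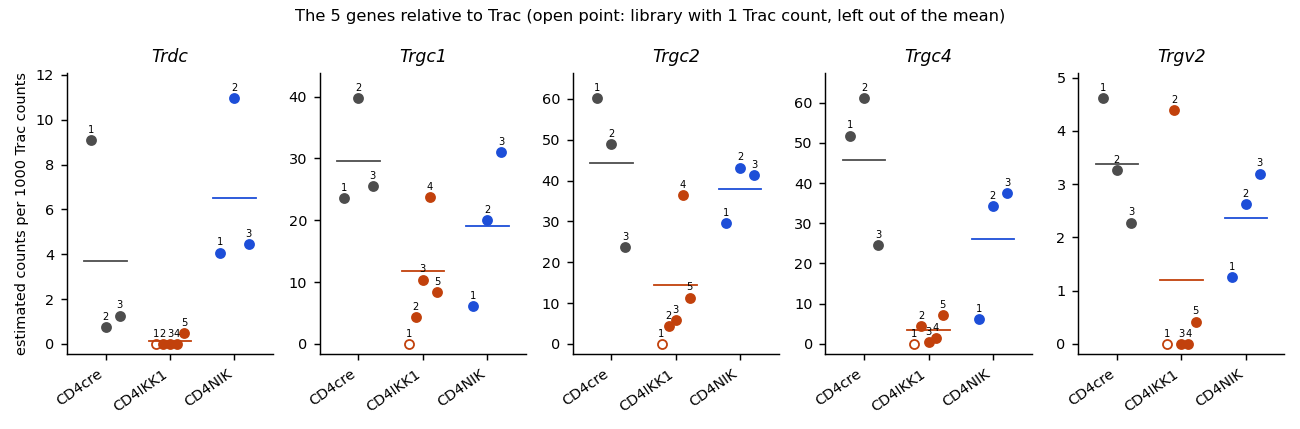
The 5 genes as estimated counts per 1000 Trac counts (vertical axis, linear) in the CD4cre, CD4IKK1 and CD4NIK libraries, with replicate numbers. Bars are group means, and the open point is CD4IKK1 replicate 1, with 1 Trac count, which is left out of its mean. For Trgc4, the CD4IKK1 values of 0.415 to 7.12 lie below the CD4cre values of 24.5 to 61.1, whereas for the other genes the points of the 3 groups interleave or rest on few counts.

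The log2 ratios to Trac were compared with two-sided exact permutation tests, 15 in all, whose p-values are not adjusted. A pseudocount of 0.5 was added to both genes, which by itself sets the ratio of CD4IKK1 replicate 1. Between CD4IKK1 and CD4cre, the difference in mean log2 ratio was −2.58 for Trgc4 (exact permutation p = 0.268), with 4 of 5 CD4IKK1 libraries below all CD4cre libraries. With the summed CD3 chains in place of Trac, it was −3.53 for Trgc4 (exact permutation p = 0.0357), and with Trac, Trbc1 and Trbc2 summed −3.14 (exact permutation p = 0.0893). Against Trac, it was −0.08 for Trdc (exact permutation p = 0.982), −0.41 for Trgc1 (p = 0.839), −0.89 for Trgc2 (p = 0.589) and −0.40 for Trgv2 (p = 0.946). The smallest p that this design can give is 0.0179. Without CD4IKK1 replicate 1, the difference for Trgc4 was −3.97 (exact permutation p = 0.0286), which is the smallest p that 4 libraries against 3 can give. None of the 15 main tests had a p under 0.05. Of the alternatives to them, 2 did, both for Trgc4, while 151 kept direction with a p above it and 27 changed sign. Without replicate 1 the other 4 genes had differences of −2.16 to −1.40, with exact permutation p-values of 0.0857 to 0.2. Without replicates 1 and 2, the differences were −2.54 for Trdc, −1.15 for Trgc1, −1.60 for Trgc2, −4.39 for Trgc4 and −3.20 for Trgv2. CD4IKK1 lay below all CD4cre libraries for Trdc, Trgc4 and Trgv2, and the smallest possible exact permutation p is 0.1. For Trdc this order rests on the pseudocount. CD4IKK1 replicates 3 and 4 held 0 counts, whose limits of 1.25 and 2.23 per 1000 Trac counts lie above CD4cre replicate 2 at 0.735.

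Between CD4NIK and CD4cre, the difference in mean log2 ratio to Trac was 1.42 for Trdc (exact permutation p = 0.3), −0.88 for Trgc1 (p = 0.4), −0.14 for Trgc2 (p = 0.8), −1.10 for Trgc4 (p = 0.4) and −0.60 for Trgv2 (p = 0.4). With 3 libraries against 3 no p below 0.1 is possible, so these tests could not pass a threshold of 0.05. Between CD4IKK1 and CD4NIK, the differences ran from −1.49 for Trdc (exact permutation p = 0.643) to 0.47 for Trgc1 (p = 0.839). Without CD4IKK1 replicate 1 they ran from −3.32 for Trdc (exact permutation p = 0.0571) to −0.52 for Trgc1 (p = 0.514). Without replicates 1 and 2 they were −3.96 for Trdc, −0.27 for Trgc1, −1.46 for Trgc2, −3.29 for Trgc4 and −2.60 for Trgv2, with CD4IKK1 below all CD4NIK libraries for Trdc and Trgv2, and the smallest possible exact permutation p is 0.1. For Trgv2, the 0 count of CD4IKK1 replicate 4 allows up to 2.23 per 1000 Trac counts, above CD4NIK replicate 1 at 1.25.

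Gamma constants and Trdc together made up 12.6%, 13.2% and 6.96% of the counts that they and Trac held in the CD4cre libraries. The shares were 1.30%, 1.63%, 5.80% and 2.65% in CD4IKK1 replicates 2 to 5, and 4.40%, 9.81% and 10.3% in the CD4NIK libraries. The exact 95% intervals of CD4IKK1 replicates 2 to 5 reached at most 7.14%, that of replicate 4, and the lowest CD4cre interval began at 6.17%. CD4NIK replicate 1 lay within the CD4IKK1 range.

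The make-up of the gamma constants differed between libraries as well. Trgc4 held 38.2%, 40.4% and 33.2% of gamma constant counts in the CD4cre libraries. It held 2.5% of 40 counts (exact 95% interval 0.0633 to 13.2%) in CD4IKK1 replicate 3, 2.41% of 83 counts (0.293 to 8.43%) in replicate 4 and 26.6% of 64 counts (16.3 to 39.1%) in replicate 5. It held 14.7%, 34.9% and 34.1% in the CD4NIK libraries. The intervals of CD4IKK1 replicates 3 and 4 lie below those of all CD4cre libraries, while that of replicate 5 overlaps them. Because Trgc4 shares no 31-base word with the other 3 genes, its share does not depend on how reads were divided among the near copies.

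Trgc2 was the largest gamma constant in CD4NIK replicate 1, with 70.6% of 973 counts (67.6 to 73.5%), against 44.1% and 37.5% in replicates 2 and 3 and 32.0% to 44.4% in CD4cre. Trgc1 held 14.7% to 28.1% in CD4NIK, 17.4% to 34.7% in CD4cre and 31.3% to 62.5% in CD4IKK1 replicates 3 to 5. Trgc3 had at most 17.1 counts in any library. The division between Trgc1 and Trgc2 carries the uncertainty of shared sequence given above.

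**Figure D4:**
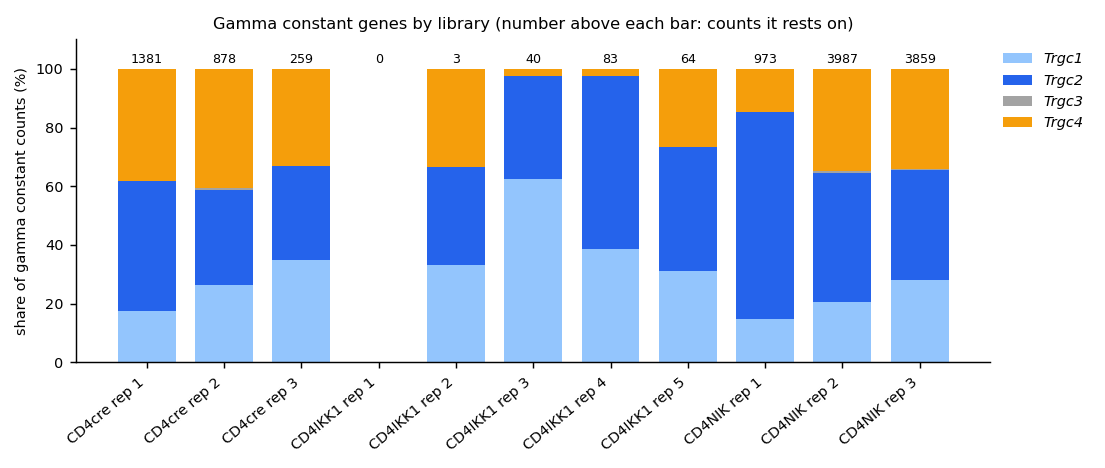
Share of each gamma constant gene among all gamma constant counts (vertical axis, percent) in the 11 libraries, with the number of counts behind each bar above it. CD4IKK1 replicate 1 has no gamma constant count and replicate 2 has 3. Trgc4 takes 33.2% to 40.4% in CD4cre, and 2.5% and 2.41% in CD4IKK1 replicates 3 and 4.

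Trdc relative to the gamma constants showed another order. Of the counts of Trdc and the gamma constants together, Trdc held 6.31% (exact 95% interval 5.12 to 7.67%) in CD4cre replicate 1, but 0.454% (0.124 to 1.16%) and 1.52% (0.416 to 3.85%) in replicates 2 and 3. In the CD4NIK libraries it held 8.90%, 10.1% and 3.86%. In CD4IKK1 replicates 3 and 4, 0 of 40 and 0 of 83 counts were Trdc, with upper limits of 8.81% and 4.35%. In CD4IKK1 replicate 5, 1 of 65 counts was Trdc, with an interval of 0.0389 to 8.28%. The limit of replicate 4 lies below the intervals of CD4cre replicate 1 and of CD4NIK replicates 1 and 2, whereas those of replicates 3 and 5 reach into the first. Gamma constant RNA was therefore present in CD4cre replicates 2 and 3 with hardly any Trdc.

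Beyond the 5 genes, 32 of the 36 segments had a count in some library, and Trdd1, Trdd2, Trdj2 and Trgj3 had none. The 5 genes held 89.6% of all counts of these segments. More than 3 counts were found for 17 segments in a CD4cre library, for 11 in a CD4IKK1 library and for 29 in a CD4NIK library. Among the variable segments, Trgv1, which neighbours Trgc4, had 27, 43 and 0 counts in CD4cre, 0 in all 5 CD4IKK1 libraries and 2, 92 and 41.7 in CD4NIK. Against 3 counts per library, Trgv1 was at least 6.64-fold lower in CD4IKK1 than in CD4cre and at least 14.5-fold lower than in CD4NIK. The first limit was 3.22-fold without CD4cre replicate 2, and the second 8.45-fold without CD4NIK replicate 2.

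Trgv4, known from IL-17-producing gamma-delta T cells, had 27, 3 and 0 counts in CD4cre, 9, 24 and 63 in CD4NIK and 9 counts in CD4IKK1 replicate 4 alone. Trgv6, the other variable segment known from such cells, had at most 5 counts. Trdv2-2, a delta variable segment, had 79.3, 0 and 32 counts in CD4cre, 13, 72 and 38.7 in CD4NIK and 12 and 2 in CD4IKK1 replicates 4 and 5. Trdv4 was seen in CD4NIK alone, with 2, 20 and 19 counts. Trdv3 ran against this order, with 8 and 5.79 counts in CD4IKK1 replicates 2 and 4, 3 in CD4cre replicate 1 and 0 in the other libraries, all CD4NIK libraries included. Delta variable segments were thus counted in CD4cre replicate 3 and CD4IKK1 replicates 2 and 4, where Trdc had 4.42, 0 and 0 counts. The 10 dual-use segments, which can join either an alpha or a delta chain, summed to 60.7, 36 and 22.3 counts in CD4cre, 0 to 18.2 in CD4IKK1 and 83.4, 225 and 149.9 in CD4NIK. They cannot be assigned to either receptor.

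**Figure D5:**
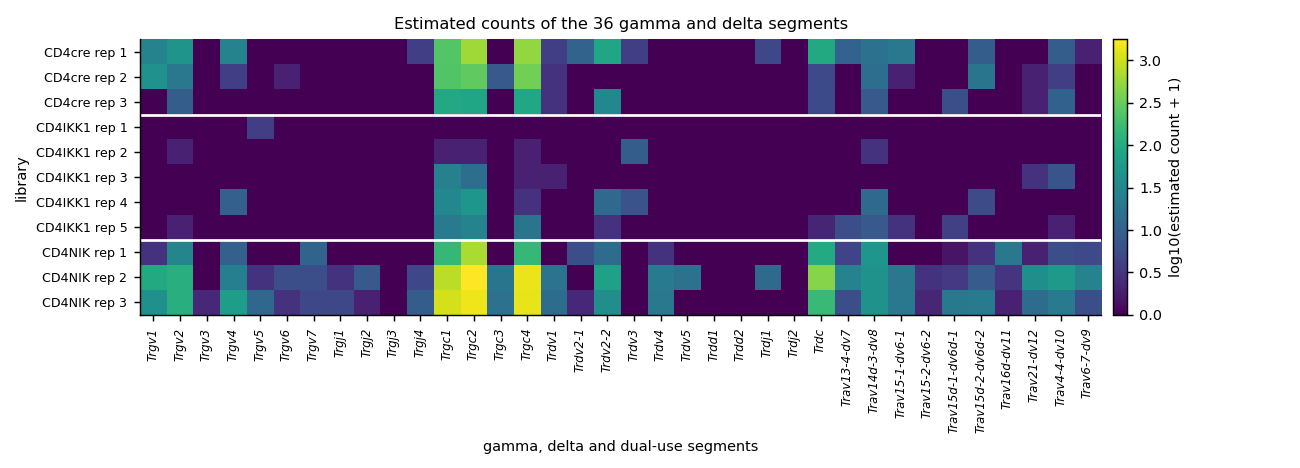
Estimated counts of the 36 gamma, delta and dual-use segments (columns) in the 11 libraries (rows), coloured by log10 of the count plus 1. Of the 36 segments, constant genes included, 17 pass 3 counts in a CD4cre, 11 in a CD4IKK1 and 29 in a CD4NIK library, and the CD4NIK rows are the most filled.

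The segments as a list had 5 genes tested between CD4IKK1 and CD4cre, with a median log2 fold change of −3.41 against 0.02 for all genes. EdgeR called 0 of them, as it called no gene in this comparison, whereas DESeq2 called Trgc1, Trgc2 and Trgc4. Calls in this and the following lists are those of edgeR. Between CD4NIK and CD4cre 1 of 10 was called higher, a share near the 10.4% of all genes, with a median of 2.24 against −0.02 for all genes. Between CD4IKK1 and CD4NIK 8 of 10 were called lower, against 18.5% of all genes, with a median of −6.02 against 0.06. These 8 are the 5 genes, Trgv1, and the dual-use Trav14d-3-dv8 and Trav15-1-dv6-1. Most segments were too low to test, and those that passed the filter did so mainly through the group where they are high, so these counts and medians describe the tested segments alone.

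The chains that both receptors need followed the same order. Of the 4 CD3 and zeta chains, 3 were called higher in CD4NIK than in CD4cre (Cd3d, Cd3e and Cd3g, log2 fold changes of 1.76, 2.96 and 3.03), with a median over the list of 2.36, beside 10.4% of all genes. All 4 were called lower in CD4IKK1 than in CD4NIK (median −3.86), beside 18.5% of all genes, and 0 were called between CD4IKK1 and CD4cre (median −2.09). Of the alpha-beta chains, Trac, Trbc1 and Trbc2 were called higher in CD4NIK than in CD4cre (median 2.14) and lower in CD4IKK1 than in CD4NIK (median −4.17), beside the same shares, and 0 of 3 were called between CD4IKK1 and CD4cre (median −2.14).

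Genes that guide gamma-delta lineage choice and selection included calls in both directions. Of 10 tested between CD4NIK and CD4cre, 5 were called higher and 1 lower, where 10.4% of all genes were called higher and 6.99% lower. Id2, an inhibitor of E proteins, rose by 1.47 on the log2 scale (edgeR quasi-likelihood FDR 0.00716), and Tcf7 and Lef1, T cell factors also high in naive alpha-beta T cells, by 2.55 and 3.26. Maf and Egr2 were the other 2 called higher, and Egr3, induced by receptor signals, was called lower at −1.09 (FDR 0.0451). In CD4IKK1 against CD4NIK, Id3, Id2, Tcf7, Lef1 and Maf were called lower and Egr3 higher (5 and 1 of 11, beside 18.5% and 14.8% of all genes). Sox13, a factor of IL-17-committed gamma-delta T cells, was at 0.774 ± 0.70 CPM in CD4cre (SD, n = 3), 0.437 ± 0.892 CPM in CD4IKK1 (SD, n = 5) and 0.262 ± 0.285 CPM in CD4NIK (SD, n = 3). Blk, a kinase of the same cells, reached 0.679 ± 0.177 CPM (SD, n = 3) in CD4NIK and passed no filter. The median of the list was 1.10, −1.74 and, between CD4IKK1 and CD4cre with 0 of 11 called, −0.79.

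Of the IL-17 programme that gamma-delta and Th17 cells share, 7 of 14 tested genes were called higher in CD4NIK than in CD4cre, against 10.4% of all genes. These were Rora, Il23r, Ccr6, Ccr2, Serpinb1a, Il18r1 and Ltb4r1, with log2 fold changes of 1.76 to 3.73 apart from Il23r. Il23r, the IL-23 receptor, had 2, 3 and 0 counts in CD4cre, at or under the limit of 3 counts, and 362, 67 and 69 counts in CD4NIK, through which it passed the filter. Il17a was at 13.4 ± 11.0 CPM in CD4cre and 22.8 ± 12.2 CPM in CD4NIK (SD, n = 3 each, edgeR quasi-likelihood FDR 0.426), and at 0.371 ± 0.512 CPM in CD4IKK1 (SD, n = 5). In CD4IKK1 against CD4NIK, 9 of 14 were called lower (median −4.02), against 18.5% of all genes, among them Il17a and Il7r. Against CD4cre, 0 of 12 were called (median −1.64). Il23r is also carried by Th17 and innate lymphoid cells, and none of these genes marks gamma-delta T cells by itself.

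Of the interferon-gamma programme, 10 of 14 genes were called higher in CD4NIK than in CD4cre (median 2.11), against 10.4% of all genes. Ifng was at 203 ± 140 CPM in CD4cre (SD, n = 3), 24.6 ± 23.0 CPM in CD4IKK1 (SD, n = 5) and 905 ± 152 CPM in CD4NIK (SD, n = 3). Gzma, encoding a granzyme, rose by 3.96 on the log2 scale (FDR 0.0197), and the others were Tbx21, Il2rb, Klrd1, Klrk1, Nkg7, Ccl5, Gzmb and Slamf7. Cd27, which marks the interferon-gamma-producing gamma-delta subset, was not called, with a log2 fold change of 1.55 (FDR 0.152). In CD4IKK1 against CD4NIK 12 of 14 were called lower (median −4.25), against 18.5% of all genes, and against CD4cre 0 of 13 (median −2.28). Candidate ligands of gamma-delta receptors were mostly too low to test, 7 of 11 in the comparison of CD4IKK1 with CD4cre. Of 3 tested, H2-T22 and Cd1d1 were called higher in CD4NIK than in CD4cre (median 1.45), beside the same 10.4%. With H2-T10 they were called lower in CD4IKK1 than in CD4NIK (3 of 4, median −3.22, beside the same 18.5%), and 0 of 4 were called between CD4IKK1 and CD4cre (median −2.07).

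Markers of other cells were examined in the same way, although the study enriched CD4+ T cells with an isolation kit and purified them further by sorting. CD8 T cell markers (Cd8a and Cd8b1) summed to 3.16 to 16.5 CPM in CD4cre, 0.0523 to 2.93 in CD4IKK1 and 13.5 to 25.7 in CD4NIK. The 6 NK cell markers summed to 13.2 to 41.4, 4.01 to 8.65 and 21.7 to 91.9 CPM. The defining NK gene Ncr1 was at 0 in CD4cre and CD4IKK1, and Klra8 in every library. The 10 innate lymphoid markers summed to 44.9 to 87.4, 20.6 to 49.8 and 211 to 239 CPM, the 7 myeloid markers to 188 to 591, 35.9 to 65.4 and 288 to 504 CPM, and the 7 tubule markers to 15.4 to 76.0, 4.76 to 9.99 and 8.77 to 69.2 CPM. The 5 B cell markers summed to at most 24.4 CPM. In CD4NIK against CD4cre, edgeR called 6 of 7 CD4 T cell, 3 of 8 innate lymphoid and 0 of 2 CD8 T cell, 0 of 3 NK, 0 of 2 B cell, 0 of 5 myeloid and 0 of 6 tubule markers higher, and 5 of 7 neuronal markers lower, beside 10.4% and 6.99% of all genes. In CD4IKK1 against CD4NIK it called 7 of 7 CD4 T cell, 4 of 8 innate lymphoid, 1 of 2 CD8 T cell, 3 of 3 NK and 1 each of 3 B cell, 5 myeloid and 7 tubule markers lower, and 6 of 7 neuronal and 1 innate lymphoid marker higher, beside 18.5% and 14.8% of all genes, so that a single marker of 5 or 7 is near the share of all genes. None was called between CD4IKK1 and CD4cre, where no gene of 15653 was. Without CD4IKK1 replicates 1 and 2, edgeR called lower in CD4IKK1 than in CD4NIK 6 of 10 segments, 3 of 4 alpha-beta chains, 4 of 4 CD3 and zeta chains, 6 of 11 lineage, 8 of 14 IL-17, 12 of 14 interferon-gamma and 3 of 4 ligand genes, beside 17.1% of all genes. Of the markers it then called 7 of 7 CD4 T cell, 1 of 2 CD8 T cell, 2 of 3 NK, 3 of 8 innate lymphoid and 1 each of 3 B cell, 5 myeloid and 6 tubule markers lower, and 6 of 7 neuronal and 1 innate lymphoid marker higher. Against CD4cre it then called Il2rb alone of all these lists, lower in CD4IKK1, and the medians of the segments were −2.73 against CD4cre and −5.32 against CD4NIK. The part of these cells in the receptor values was not tested.

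Likeness to the 5 genes was measured by Pearson's r of log2 CPM over the 11 libraries among 16546 genes, as a description, since the libraries fall into the groups above and share their T cell RNA. Trdc was most like Gapt (0.988), an adaptor of hematopoietic cells, followed by the alpha-beta segments Trbv14, Trbv5, Trbj2-1 and Trav12-3 (0.984 to 0.981). Trac was at 0.729 to Trdc, and the 4 gamma genes were at 0.829 to 0.95. By Spearman's rho, which uses ranks alone, Trac was at 0.935 to Trdc and the gamma genes at 0.856 to 0.935, so this order depends on the measure. Trgc1 was most like Trbv1 (0.984), Junb, Trgc2, Gps2 and Nfkbid. Trgc2 was most like Pik3r5 (0.994), Arf6, Shc1, Irf3 and Junb. Trgc4 was nearest to Dedd2 (0.982), H2-Ke6, Slc27a6, Trav14-2 and Myh9. For Trgv2 the closest were Trav14-2 (0.991), Nr3c1, Trbv5, St3gal4 and Trav16n. Variable or joining segments of alpha-beta receptors thus stood among the nearest genes of Trdc, Trgc1, Trgc4 and Trgv2.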

How the data were processed

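Bulk RNA sequencing was deposited as 1 table of estimated counts per gene symbol, which the authors made with Trimmomatic and kallisto, without normalization. The study names the assembly GRCm39 and the submitters' processing notes mm10, and kallisto's version is not given in the sources used here. kallisto divides reads that match several transcripts, so 35.3% to 41.8% of values per library were not whole. Counts were rounded, filtered with edgeR's expression filter, normalized by TMM and tested across all genes with the robust quasi-likelihood test of edgeR 4.0.16 in R 4.3.3, with p-values adjusted by Benjamini-Hochberg. Each deletion was fitted with CD4cre, and CD4IKK1 against CD4NIK in a fit of all 11 libraries. DESeq2 1.42.0, RLE and upper-quartile factors, no filter, a fit that is not robust, scaling to Trac, the replicate number as a block, other denominators and pseudocounts, and leaving out libraries were alternatives. Leaving out CD4IKK1 replicates 1 and 2 together, and single libraries in the pooled ratios and limits, was added after seeing the data. Standard errors were derived from the F statistic. Ratios to Trac were compared by exact permutation over libraries. None of the 55 pairs of libraries was identical. P-values measure only the spread between the libraries. Genes named are the 5 genes, Trac, Trbc1 and Trbc2, the other segments, genes of the lists that were called in any comparison or the 3 most abundant of a list without calls, and the 5 genes most like each member; Sox13, Blk, Cd27, Ncr1 and Klra8 were named with their values seen. The members and lists were chosen with earlier results of these data known. One of the 15 genes of the IL-17 list is not a symbol of the table. The tests were checked on simulated data. Some single genes of the lists are not reported here.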

Additional observations from a re-analysis of the deposited data

Results flagged for a closer look

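In CD4IKK1, the only group with more than 3 libraries, replicate 5 stood apart as the highest library for 2 of the 5 genes, by the gap to its nearest neighbour relative to the range of the group. Trgc4 was at 0.766 CPM there, from 17 counts, while the other 4 libraries held 0 to 2 counts. Trdc was at 0.0451 CPM there, from 1.14 counts against 0 in the others, which is under the limit of 3 counts. With 0 in all the others, any count would stand apart, so this mark carries no information. The check was run on 11 quantities, the CPM of the 5 genes and of Trac and the log2 ratios of the 5 genes to Trac. Chance marks about 1 in 20 groups if values are normally spread, which counts near 0 are not.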

How the results depend on the processing

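Between CD4IKK1 and CD4cre, the count of genes called was 0, and it was 542 with DESeq2, 1 with RLE or upper-quartile factors, 48 without a filter, 129 with all 11 libraries in the fit, 36 without CD4IKK1 replicates 1 and 2, and 0 to 23 when 1 library was left out, with 23 without CD4IKK1 replicate 4, 9 without replicate 3, 4 without replicate 1 and 2 without CD4cre replicate 3. Between CD4NIK and CD4cre it was 2649, and 674 to 3468 when 1 library was left out, with 674 and 918 without CD4NIK replicate 3 or 2 and 859 and 1001 without CD4cre replicate 3 or 2. Scaling to Trac gave 12240 there and 14482 between CD4IKK1 and CD4NIK, against 5512. That scaling moved the median of all genes to 9.53 between CD4IKK1 and CD4cre and 12.27 between CD4IKK1 and CD4NIK, where CD4IKK1 replicate 1 holds 1 Trac count, and to −2.80 between CD4NIK and CD4cre, where Trac itself differed by 2.74. Under it the log2 fold changes between CD4NIK and CD4cre changed sign for Trgc1 (−0.63), Trgc2 (−0.22), Trgc4 (−0.82) and Trgv2 (−0.53), none of them called, and none of the 5 genes was called between CD4IKK1 and CD4NIK, where all were called under every other alternative. Between CD4IKK1 and CD4NIK, 2444 genes were called higher and 3068 lower, and 3213 and 2575 with upper-quartile factors, which moved the median of all genes to 0.30. Trgc2 between CD4NIK and CD4cre was not called without a filter (FDR 0.0614) or with all 11 libraries in edgeR's fit (FDR 0.142), at log2 fold changes of 2.45 and 2.44 against 2.43. Of 221 fold changes of the 5 genes under alternatives, 193 kept their direction and call.

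The replicate number as a block (replicate block) gave 3 genes between CD4IKK1 and CD4cre, 1185 between CD4NIK and CD4cre and 4989 between CD4IKK1 and CD4NIK, and Trgc2 was then not called between CD4NIK and CD4cre (log2 fold change 2.61, FDR 0.0654 from edgeR). Libraries with the same number did not deviate together, with correlations of −0.089 to 0.077, so the numbers were not taken as pairs.

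Ratios to Trac changed sign in 27 of 180 alternatives, none of them with a p under 0.05. Between CD4IKK1 and CD4cre, a pseudocount of 1 gave 0.62 for Trdc and 0.24 for Trgv2, and leaving out 1 library gave −1.91 to 0.95 for Trdc, −1.40 to 0.018 for Trgc1, −3.97 to −1.70 for Trgc4 and −2.16 to 0.50 for Trgv2. Trgc4 reached −3.53 with the CD3 chains as denominator. Between CD4NIK and CD4cre, Trgc2 was at 0.33 with all alpha-beta constants or with the CD3 chains as denominator, and at −0.53 to 0.13 with 1 library left out. The others then lay at 0.71 to 2.45 for Trdc, −1.37 to −0.21 for Trgc1, −1.56 to −0.25 for Trgc4 and −0.87 to −0.20 for Trgv2. Between CD4IKK1 and CD4NIK, a pseudocount of 0.1 gave −0.0075 for Trgc1 and −1.27 for Trgv2, the alpha-beta constants −0.57 and −0.83, the CD3 chains −0.95 and −1.22, and the fit without CD4IKK1 replicates 1 and 2 −0.27 and −2.60. With 1 library left out, they were −0.52 to 0.96 and −1.56 to 1.11. The cause of these changes was not tested. Low counts limit Trdc and Trgv2 in CD4IKK1, which are at or under 3 counts in each library.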
